A study of Danio rerio with 40 samples.

Results

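Expression of 10 myelin and oligodendrocyte genes was examined in adult zebrafish of the wh5 line, a cyp1b1 knockout, and in wild-type (WT) fish. The genes are mbpa, mbpb, mpz, plp1a, plp1b, mag, cldnk, sox10, olig2 and nkx2.2a, chosen by symbol. All 10 are listed in both deposited tables, among 19429 genes for eye and 19300 genes for brain. Poly(A) RNA of whole eyes and whole brains was sequenced in 40 samples. These comprise 10 wh5 and 10 WT eye samples and 10 wh5 and 10 WT brain samples, each with 5 females and 5 males. No treatment is named, and the labels give neither strain background nor an exact age. The tables hold no value of a single sample, so each gene has 1 log2 fold change (wh5 over WT) per organ, its standard error (SE) and a base mean, which is the mean normalised count over wh5 and WT samples together. Titles were used for the organ, because the source field names the other organ in all 40 samples. Marker genes follow the names of the tables: in the authors' deposited tables the rod opsin gene rho had a base mean of 632710 in eye and 1359 in brain, and the synaptic gene snap25a had 15644 in eye and 100890 in brain. For the targeted gene cyp1b1 the log2 fold change was 0.54 (adjusted p = 0.016, SE 0.14) in the authors' deposited table for eye and -0.17 (adjusted p = 0.818, SE 0.14) in that for brain, and the eye call was lost with an empirical null (adjusted p = 0.464). Transcript level therefore does not check the genotype labels.

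Myelin is the membrane that glia wrap around axons to speed conduction. Oligodendrocytes make it in the brain and along the optic nerve, and Schwann cells make it in peripheral nerves. Its layers are held together by a few very abundant proteins, while a small set of transcription factors sets up the oligodendrocyte lineage. In bulk organs, fewer myelinating cells and less RNA per cell cannot be told apart.

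None of the 10 genes differed between wh5 and WT in either organ at an adjusted p below 0.05 (DESeq2, over all listed genes). The count was 0 of 10 in eye, where 1.67% of all listed genes were called, and 0 of 10 in brain, where 0.736% were. At an unadjusted p below 0.05 there was 1 gene in eye, plp1a, against 14.2% of all genes. In brain there were 2, plp1b and mbpa, against 8.62% of all genes. Fold changes were mostly below 0: 9 of 10 in eye, where 48.1% of all genes were below 0, and 8 of 10 in brain, where 50.5% were. The exceptions were mbpb in eye and mag and nkx2.2a in brain. Among the values below 0, mpz (-0.0022) and sox10 (-0.0043) in eye and plp1a (-0.013) in brain were close to 0. The median log2 fold change of the 10 genes was -0.35 in eye, against 0.0086 over all genes, and -0.084 in brain, against -0.0014 over all genes. These counts and medians are descriptions, since the genes share cells and samples and were chosen together, with earlier results of these data known.

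**Figure D1:**
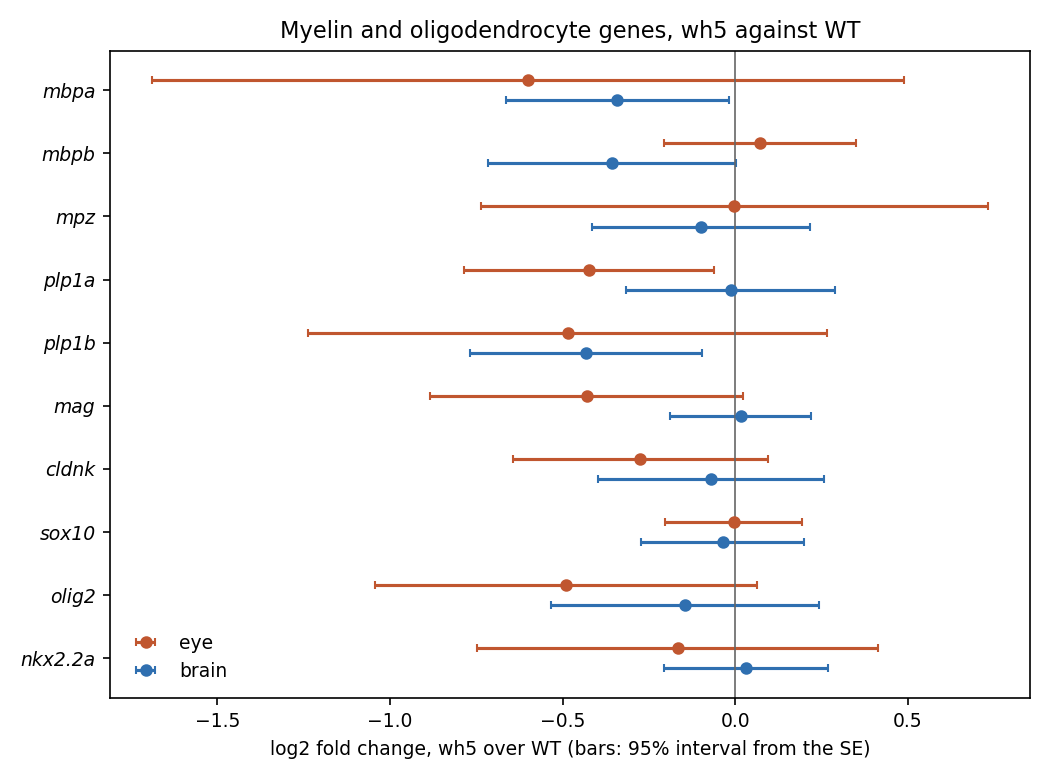
Log2 fold change of wh5 over WT (x axis) for each of the 10 genes (rows), in eye and brain. Points are the authors' deposited estimates and bars are 95% intervals from their SE. The eye intervals of mbpa, mpz and plp1b are the widest of the 20 drawn, and the intervals of plp1a in eye and of plp1b and mbpa in brain do not reach 0.

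The myelin basic protein genes mbpa and mbpb encode the cytoplasmic protein that compacts the sheath. In the authors' deposited table for eye, mbpa had a log2 fold change of -0.60 (adjusted p = 0.682, SE 0.56), a fold of 0.659 with a 95% interval of 0.31 to 1.40. For brain the authors' deposited table gives mbpa -0.34 (adjusted p = 0.533, SE 0.16), a fold of 0.789 (0.631 to 0.987). Its duplicate mbpb stood at 0.072 (adjusted p = 0.870, SE 0.14) in the authors' deposited table for eye and at -0.36 (adjusted p = 0.583, SE 0.18) in that for brain. The estimates of both genes in brain were thus close to each other, whereas in eye they had opposite signs with overlapping intervals. How reads shared between such duplicates were counted is not stated in the labels.

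Proteolipid protein, the main membrane-spanning protein of central myelin in mammals, is encoded by plp1a and plp1b in zebrafish. For plp1b the log2 fold changes were close in value, -0.49 (adjusted p = 0.606, SE 0.38) in the authors' deposited table for eye and -0.43 (adjusted p = 0.344, SE 0.17) in that for brain. The brain interval of plp1b ran from a fold of 0.587 to 0.935, and its unadjusted p of 0.0116 was the lowest of the 10 genes in either organ. By contrast plp1a had -0.42 (adjusted p = 0.242, SE 0.18) in the authors' deposited table for eye and -0.013 (adjusted p = 0.992, SE 0.16) in that for brain. Its eye interval was a fold of 0.58 to 0.959.

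The remaining sheath genes gave no call either. Myelin protein zero (mpz), an adhesion protein that in fish is also made in central myelin, had a log2 fold change of -0.0022 (adjusted p = 0.999, SE 0.37) in the authors' deposited table for eye and -0.098 (adjusted p = 0.930, SE 0.16) in that for brain. The claudin gene cldnk, whose product is a tight junction protein of zebrafish myelin, had -0.27 (adjusted p = 0.535, SE 0.19) in the authors' deposited table for eye and -0.07 (adjusted p = 0.957, SE 0.17) in that for brain. Myelin associated glycoprotein (mag) sits at the contact between sheath and axon. It had -0.43 (adjusted p = 0.382, SE 0.23) in the authors' deposited table for eye and 0.016 (adjusted p = 0.984, SE 0.10) in that for brain. The brain interval of mag, a fold of 0.878 to 1.17, was the narrowest in brain on the log2 scale.

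The lineage transcription factors also gave no call. In the authors' deposited tables sox10, which drives myelin genes in oligodendrocytes and Schwann cells and also marks neural crest, had -0.0043 (adjusted p = 0.993, SE 0.10) in eye and -0.036 (adjusted p = 0.968, SE 0.12) in brain. Both sox10 intervals were narrow, a fold of 0.868 to 1.14 in eye and 0.828 to 1.15 in brain. The bHLH gene olig2, needed for the oligodendrocyte and motor neuron lineages, had -0.49 (adjusted p = 0.430, SE 0.28) in the authors' deposited table for eye and -0.15 (adjusted p = 0.917, SE 0.20) in that for brain. The homeobox gene nkx2.2a, active in oligodendrocyte progenitors, had -0.17 (adjusted p = 0.853, SE 0.30) in the authors' deposited table for eye and 0.031 (adjusted p = 0.977, SE 0.12) in that for brain. Its base mean in eye was 19.1, the only one of the 20 values under 50.

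The genotype effect itself was compared between organs as eye minus brain, with the root of the summed squared SEs and a two-sided normal p adjusted over the 18275 genes in both tables (Benjamini-Hochberg). The difference was called for 0 of 10 genes, against 0.0821% of all genes, and 0 of 10 had an unadjusted p below 0.05, against 8.19% of all genes. The lowest p was that of mbpb, whose difference was 0.43 on the log2 scale (95% interval -0.025 to 0.884, adjusted p = 0.641 from the DESeq2 estimates). For mag the difference was -0.45 (-0.944 to 0.051, adjusted p = 0.657) and for plp1a -0.41 (-0.882 to 0.063, adjusted p = 0.675). For mbpa it was -0.26, with an interval from -1.396 to 0.877 that leaves a wide range of differences possible. The test treats the organs as independent, and the labels do not say whether an eye and a brain came from the same fish.

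All 10 genes had a higher base mean in brain than in eye, as the plot of base means shows. Because the organs were normalised in separate fits, each ratio is given relative to the median gene, whose base mean in eye was 0.96 of that in brain. On this scale nkx2.2a was 18.9-fold higher in brain, plp1b 13.8-fold, mbpa 13.4-fold and olig2 13.0-fold. The ratio was 9.72-fold for mag, 8.54-fold for mpz and 5.32-fold for cldnk. It was smaller for plp1a (3.38-fold) and mbpb (2.58-fold), and sox10 was 1.24-fold higher in brain. In the authors' deposited tables mbpa had a base mean of 12236 in eye and 170770 in brain, mbpb had 1850 in eye and 4969 in brain, and sox10 had 609 in eye and 784 in brain. The duplicates therefore differed in organ balance, mbpb and plp1a being less tilted to brain than mbpa and plp1b. Together the 10 genes took 0.0829% of the summed base means in the table for eye and 1.07% in that for brain, a share of counts that is not corrected for transcript length. Most of both shares was mbpa, which alone took 0.0484% in eye and 0.758% in brain. The base means carry no SD, as no sample values are given.

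**Figure D2:**
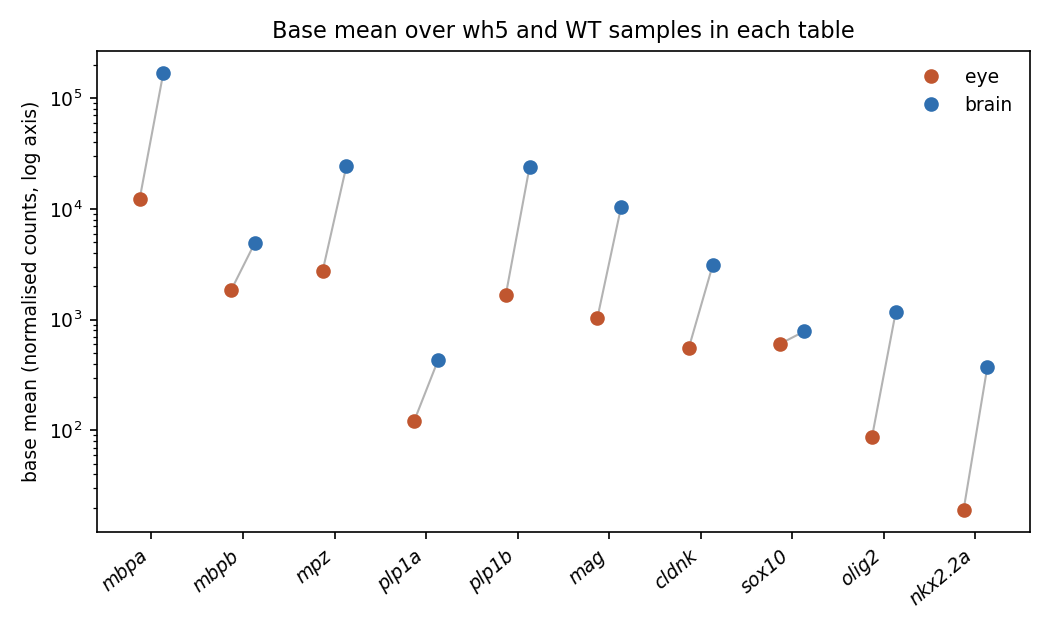
Base mean in normalised counts (y axis, log scale) of each gene in the authors' deposited tables for eye and brain, over wh5 and WT samples together, with a line joining the organs. Every line goes up to brain, most steeply for nkx2.2a, followed by plp1b, mbpa and olig2, and least for sox10.

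The SE is that of a fitted model whose formula is not stated, so it shows the scatter of samples only indirectly. Each SE was set against the median SE of up to 200 genes nearest in rank of base mean in the same table. For the most abundant genes fewer genes rank above, so their set is smaller and mostly of lower base mean. In eye the SE of mbpa was 4.69 times that median, of plp1b 3.92 times, of mpz 3.78 times and of mag 2.25 times. The value for mbpa exceeded those of 99.2% of all genes in eye. In contrast sox10 (0.961), nkx2.2a (0.832) and plp1a (1.05) were close to genes of like base mean, and mbpb stood at 1.45. In brain the ratios lay closer together, from 1.08 for nkx2.2a to 2.54 for olig2, with mbpa at 2.17 and mbpb at 2.47. The median ratio of the 10 genes was nevertheless higher in brain, at 2.15, than in eye, at 1.55. Raised SEs of these genes were therefore not limited to eye, where the largest single ratios stood. The SE in eye was 3.38 times that in brain for mbpa, 2.32 times for mpz and 2.24 times for plp1b, against a median of 1.12 over all genes, whereas it was 0.775 times for mbpb and 0.845 times for sox10. The SE ratio of olig2 in eye was 1.39, at a base mean of 87.4. Among markers of other cell types in eye, described below, the median ratio was 5.6 for lens, 2.34 for microglia and 2.04 for muscle. It was 1.598 for Schwann cells, 1.47 for astroglia, 0.998 for neurons and 0.759 for photoreceptors. In brain the same medians were 4.74 for photoreceptors, 2.06 for muscle, 1.49 for microglia and 1.38 for astroglia. For Schwann cells the brain median was 1.20, for neurons 1.14 and for lens, with only 3 of 6 markers listed, 0.878. What sets the SEs of the 10 genes was not tested.

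**Figure D3:**
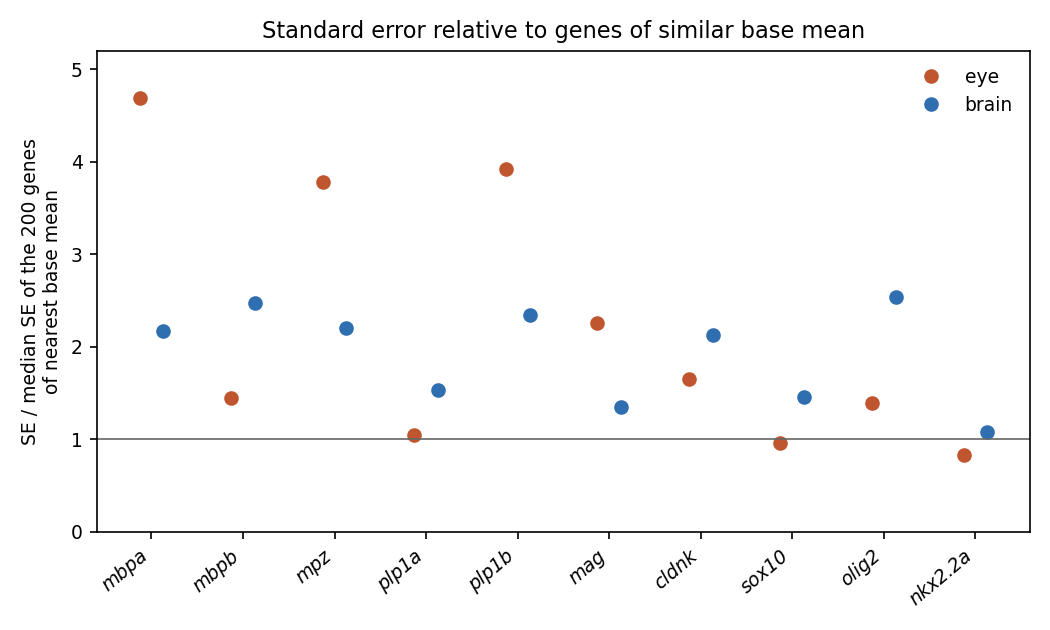
Ratio of the SE of each gene to the median SE of up to 200 genes of nearest base mean (y axis), in eye and brain, with a line at 1. In eye mbpa, plp1b and mpz stand at 3.78 to 4.69, above every brain value, and sox10, plp1a and nkx2.2a lie near 1. The median of the 10 genes is 1.55 in eye and 2.15 in brain.

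These SEs set what could be called. The smallest test statistic among called genes was 3.34 in eye and 3.56 in brain. At its SE, mbpa in eye would have been called only from a log2 fold change of 1.86 in either direction, a fall to 0.276 of the WT level. The same limit for mbpa in brain was 0.59, a fall to 0.666 of WT. For sox10 it was 0.34 in eye and 0.43 in brain, and for mag 0.77 in eye and 0.37 in brain. An estimate smaller than these would not have been called.

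Further genes of myelin and its glia were examined in 6 lists with 108 genes, of which 98 are listed in the table for eye and 100 in that for brain. In eye 3 were called, 1 higher and 2 lower in wh5, against 0.973% and 0.7% of all genes. The lysophosphatidic acid receptor gene lpar1 fell in eye, with a log2 fold change of -0.50 (adjusted p = 0.0462, SE 0.15) in the authors' deposited table, and the glial receptor gene gpr37a fell with -0.36 (adjusted p = 0.018, SE 0.097) in the authors' deposited table. The chondroitin sulphate proteoglycan gene cspg5b rose by 0.46 (adjusted p = 0.012, SE 0.12) in the authors' deposited table for eye. With p-values recomputed from an empirical null none of these 3 was called (adjusted p of 0.623 for lpar1, 0.433 for gpr37a and 0.398 for cspg5b), and without the chromosome of cyp1b1 lpar1 had an adjusted p of 0.0552. At an unadjusted p below 0.05 there were 17 of 98 in eye, against 14.2% of all genes. In brain, 0 of 100 were called by DESeq2, against 0.736% of all genes, and 10 had an unadjusted p below 0.05, against 8.62%. There lpar1 had 0.036 (SE 0.13), gpr37a -0.11 (SE 0.18) and cspg5b 0.11 (SE 0.066) in the authors' deposited table. The organ difference of these 3 genes was not called (adjusted p = 0.445 for lpar1, 0.769 for gpr37a and 0.482 for cspg5b). Transcripts of lpar1, gpr37a and cspg5b are not limited to oligodendrocytes.

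Sheath proteins such as tetraspanins, claudins and peripheral myelin proteins had 20 of 25 genes listed in each table. None was called, and their median was -0.11 in eye and 0.018 in brain. The GPI-anchored gene cd59, present in zebrafish myelinating glia, had a log2 fold change of -0.23 (adjusted p = 0.753, SE 0.26) in the authors' deposited table for eye and -0.052 (adjusted p = 0.977, SE 0.21) in that for brain. Genes of axon contact and the paranode had medians of -0.086 in eye and 0.033 in brain over 12 of 13 genes, none called. Among them nfasca, which encodes the node and paranode protein neurofascin, had -0.24 (adjusted p = 0.284, SE 0.11) in the authors' deposited table for eye and 0.065 (adjusted p = 0.902, SE 0.078) in that for brain. Myelin lipid synthesis genes had medians of -0.086 in eye and -0.02 in brain over 15 genes, none called. The galactolipid synthesis gene ugt8 had -0.20 (adjusted p = 0.682, SE 0.18) in the authors' deposited table for eye and 0.073 (adjusted p = 0.957, SE 0.18) in that for brain.

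Lineage transcription factors outside the 10 genes had a median of -0.034 over 22 of 26 genes in eye and -0.07 over 25 of 26 in brain, none called. This list includes znf488, matched by gene ID to a row that the tables call prdm8, which lies on the chromosome of cyp1b1. That row had 0.31 (unadjusted p = 0.011, SE 0.12, DESeq2) in the authors' deposited table for brain, and is 1 of the 10 genes at an unadjusted p below 0.05 there. The genes olig1, olig4 and nkx2.2b of this list are in the table for brain and not in that for eye. Among these further genes, at base means of 100 or more, the lowest value in brain was that of sox8b, a relative of sox10, at -0.70 (adjusted p = 0.405, SE 0.29) in the authors' deposited table. The highest was that of the sheath protein gene prx, which encodes periaxin, at 0.51 (adjusted p = 0.711, SE 0.32) in the authors' deposited table. Progenitor markers had medians of 0.081 in eye and 0.023 in brain over 10 genes, with cspg5b as the called member in eye. Its relative cspg5a had 0.090 (adjusted p = 0.738, SE 0.098) in the authors' deposited table for eye. The progenitor phosphatase gene ptprz1b had 0.073 (SE 0.096) in the authors' deposited table for eye and 0.082 (SE 0.058) in that for brain. Glial signalling genes had medians of -0.0075 over 19 genes in eye and -0.0047 over 18 in brain, with lpar1 and gpr37a called in eye. Close to the threshold in eye was gpr37l1b, a relative of gpr37a, at -0.32 (adjusted p = 0.0608, SE 0.10) in the authors' deposited table. Other relatives in the same list did not fall there. In eye gpr37b had 0.025 (adjusted p = 0.962, SE 0.14) and gpr37l1a 0.0085 (adjusted p = 0.995, SE 0.26) in the authors' deposited table. The RNA-binding gene qkia, whose mouse relative regulates myelin transcripts, had -0.25 (adjusted p = 0.153, SE 0.095) in the authors' deposited table for eye and -0.085 (adjusted p = 0.875, SE 0.087) in that for brain.

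**Figure D4:**
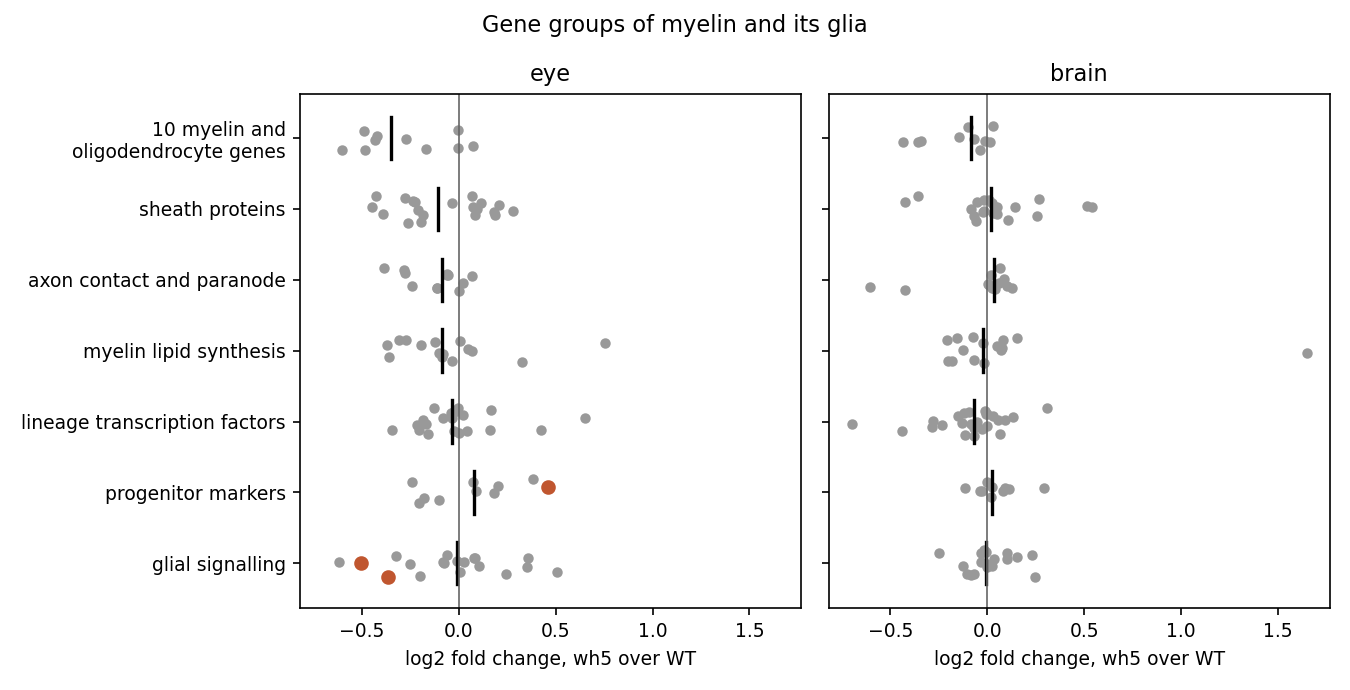
Log2 fold change of wh5 over WT (x axis) for the 10 genes and the genes of the 6 further lists (rows), in eye (left) and brain (right). Each point is a gene, a black bar is the row's median, and larger coloured points are called genes. In eye 3 genes are coloured, cspg5b to the right and lpar1 and gpr37a to the left, and in brain none is.

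Markers of other cell types were set beside these values. Over all genes 48.1% were below 0 and 1.67% called in eye, and 50.5% were below 0 and 0.736% called in brain. In eye 12 of 15 neuron markers had a log2 fold change below 0 (median -0.16), and the neurofilament gene nefma was called at -0.69 (adjusted p = 0.0343, SE 0.20) in the authors' deposited table. The astroglial gene glula was called in eye at -0.26 (adjusted p = 0.0296, SE 0.073) in the authors' deposited table, with 5 of 7 astroglial markers below 0. Values of nefma and glula under an empirical null are not given here. Their test statistics in eye (-3.505 and -3.561) lay between those of gpr37a (-3.738) and lpar1 (-3.371). Both gpr37a and lpar1 lost their calls under that null. Schwann cell markers had 2 of 7 genes below 0 in eye (median 0.094), none called. They are no separate set, since all 7, pmp22a, pmp22b, prx, pou3f1, erbb3b, egr2b and adgrg6, also belong to the further lists above. In brain 7 of 15 neuron markers, 2 of 8 astroglial and 4 of 7 Schwann cell markers were below 0, none called. All 10 photoreceptor markers were below 0 in brain (median -2.37, 2 called), against 2 of 10 in eye (median 0.14, none called). These markers were scarce and had large SEs in brain, with a median base mean of 74.3 against 34820.5 in eye. Their median SE was 1.03 in brain and 0.090 in eye. The called ones in brain were the cone genes gnat2 and opn1sw2. Their values under an empirical null are not given here either. The gnat2 statistic (-3.5636) was the smallest in size among all genes called in brain. In the authors' deposited table gnat2 had -3.05 (adjusted p = 0.0497, SE 0.86) at a base mean of 256. There opn1sw2 had -3.85 (adjusted p = 0.0301, SE 1.03) at a base mean of 71.8. Lens, muscle and microglia markers gave no call in either organ, with medians of 0.037, 0.052 and -0.047 in eye and 0.19, -0.0098 and -0.057 in brain. The lens median in brain rests on 3 of 6 markers, 1 of them below 0, at a median base mean of only 21.2. Summed levels per genotype are not contained in the tables, and the part of these cell types in the myelin values was not tested.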

How the data were processed

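Eye and brain poly(A) RNA from 40 zebrafish samples was compared between wh5 and WT per organ. Per the submitters' processing notes, GRCz11, STAR, fastp and DESeq2 1.32.0 were used. No source used here gives the model formula, the filters or any sex term. Per the file headers, the authors deposited a log2 fold change with its SE (log2 units, base taken from DESeq2 output), a base mean (signal, mean normalised counts), a test statistic (score, the fold change over its SE), and p-values before and after adjustment. Benjamini-Hochberg adjustment of the deposited p gave the deposited adjusted p (largest relative difference 0.0045). No sample values were used, so the depth per library is unknown and precision rests on the SE. The labels do not say that samples are separate fish, so p-values measure the spread between these samples, which may be technical.

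A gene was called at a deposited adjusted p below 0.05, with no refit. The 95% intervals are the estimate with the normal quantile times the SE. Alternatives were an adjusted p below 0.1, an empirical null (median and scaled median deviation of all statistics), removal of the chromosome of cyp1b1, a base mean of at least 50, centring on the median gene and, between organs, a correlation of 0.3. Chromosomes came from the RefSeq gene table of GRCz12tu (96.4% of eye genes and 96.1% of brain genes placed). None of the 10 genes lies on that of cyp1b1. The 10 genes and all lists were chosen with earlier results of these data known. Named list genes are those called, the extremes at a base mean of at least 100 and the 2 of highest base mean per list and table, of which some are shown. Other list genes were named after their values were seen. List genes were matched by symbol, or by gene ID to the RefSeq symbol (3 genes). The Benjamini-Hochberg adjustment was checked on simulated fold changes with independent normal errors of the deposited SEs. SE ratios, base mean ratios between organs and list counts were not part of that check. Software was Python 3.11.15 with numpy 2.4.6, pandas 2.3.3, matplotlib 3.10.9 and scipy 1.17.1.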

Additional observations from a re-analysis of the deposited data

How the results depend on the processing

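For the 10 genes (nkx2.2a in eye falls under the base mean minimum), 158 values recomputed over both organs and the organ difference kept their direction and stayed uncalled under an adjusted p below 0.1, an empirical null, removal of the chromosome of cyp1b1, a base mean of at least 50, centring on the median gene and, for the organ difference, a correlation of 0.3 between organs. Only the empirical null and the centring could change a direction. The other alternatives leave the estimate as it was and bear on the call alone. The median log2 fold change of the 10 genes was -0.36 in eye and -0.083 in brain after centring, and -0.42 in eye over the 9 genes whose base mean was 50 or more. Of the further myelin genes called in eye, 0 of 3 were called with an empirical null, and the cause was not tested. At an adjusted p below 0.1 there were 4, 1 higher and 3 lower, with gpr37l1b added. Without the chromosome of cyp1b1, with fewer genes tested, 2 were called and lpar1 was not (adjusted p = 0.0552). Shares of all genes called under these alternatives are not given here. The changes in count are therefore not read as particular to the myelin genes. Of the list genes, only those named by rule were recomputed singly, so changes of sign in others are not listed. Among the genes named by rule, values near 0 changed sign with an empirical null for cntn1b (adjusted p = 0.999) and elovl1b (0.999) in eye and zeb2a (0.9995) in brain, and with centring for cntn1b (0.985), elovl1b (0.997) and zeb2a (0.998). These signs were of estimates under 0.01. No gene lacked a deposited adjusted p. No paired analysis was possible because the tables hold no value of a single sample, and for that reason no replicate was left out. Precision is limited by the SE, most for mbpa, plp1b and mpz in eye.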

Other observations

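The galactolipid sulphotransferase gene gal3st1b, which in mammals makes sulphatide, had the highest log2 fold change of the further myelin genes in eye at base means of 100 or more. It had positive estimates in both organs of the authors' deposited tables, 0.75 (adjusted p = 0.172, SE 0.29) in eye and 1.65 (adjusted p = 0.224, SE 0.58) in brain, neither called. The base mean of gal3st1b was 127 in eye and only 36.4 in brain. Of genes named after their values were seen, the zinc finger gene egr2b, known for Schwann cell myelination and hindbrain patterning, had 0.65 (adjusted p = 0.330, SE 0.32) in the authors' deposited table for eye and -0.44 (adjusted p = 0.359, SE 0.18) in that for brain. Its eye minus brain difference of 1.09 (95% interval 0.368 to 1.80, adjusted p = 0.379) had the lowest unadjusted p of the 97 further genes in both tables (0.00305) and was not called. The base mean of egr2b was only 45.0 in eye and 156 in brain.

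The oligodendrocyte transcription factor gene myrf, which switches on myelin genes, had an SE 2.70 times that of genes of like base mean in eye, close to mag, and 1.74 times in brain. Larger still in eye were the SE ratios of malb (5.94), a relative of the myelin and lymphocyte protein gene, and of prx (5.35), which is made in Schwann cells and in other tissues. Unlike the 10 genes, malb and prx had higher base means in eye than in brain, by 6.58 and 4.19 on the log2 scale relative to the median gene. The base mean of malb was 333 in eye and only 3.63 in brain, and that of prx was 2139 in eye and 122 in brain.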
